A study of Mus musculus with 2 samples.

Results

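The nuclear-encoded subunits of oxidative phosphorylation were examined in RNA-seq of differentiated female germline stem cells (FGSCs), the germ cells of the postnatal ovary that can be cultured and induced to differentiate. Members were the protein-coding nuclear genes whose symbols mark them as subunits of complexes I to V (Ndufa, Ndufb, Ndufc, Ndufs, Ndufv, Sdha to Sdhd, Uqcr and Cyc1, Cox4i to Cox8, and Atp5), without the assembly factors of the Ndufaf series. They came to 86 of the 21833 protein-coding nuclear genes with an entry in the data. Complex I held 38 of them, complex II 4, complex III 9, complex IV 18 and complex V 17. The data comprised 2 libraries, replicates 1 and 2, of FGSCs from female CD-1 mice, labelled as premeiotic interphase and treated with retinoic acid (RA). The cells had been cultured for 3 days on a monolayer of granulosa cells in medium without GDNF, EGF and LIF but with 10 µM RA and 10 ng/mL BMP4. Each library was made by the Smart-seq2 method, in which polyadenylated RNA of a few cells, here 5 to 8, is copied into cDNA and amplified by PCR. Both libraries belong to the same condition, so no difference between conditions was tested, and the labels do not say whether they came from separate cultures.

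Oxidative phosphorylation takes place in the inner mitochondrial membrane. Complex I oxidizes NADH, complex II oxidizes succinate, complex III passes the electrons to cytochrome c, and complex IV passes them to oxygen. The proton gradient built up by complexes I, III and IV drives ATP synthase, also called complex V. Most subunits are encoded in the nucleus and imported, and a small set is encoded in the mitochondrial genome, so an assembled complex needs both. Oocytes carry many mitochondria, and the promoters of subunit genes are known for binding sites of NRF1, of ETS factors such as GABP, and of YY1.

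The libraries stood far apart in depth. Replicate 1 held 1517151 counts and replicate 2 held 12442, so that 1 count corresponded to 0.659 counts per 1000000 (CPM) in the former and 80.4 CPM in the latter. A count of 3, taken as the smallest level shown, was 1.98 CPM in replicate 1 and 241 CPM in replicate 2. Of 8 germ cell markers, 7 (Ddx4, Dazl, Ifitm3, Pou5f1, Stra8, Sycp3 and Dppa3) were at 0 in both libraries and Kit had 1 count, although up to 10476 counts on entries that could belong to several genes may include Ifitm3. All 8 had several entries, from 2 for Ddx4 and Dppa3 to 7 for Kit. Reads on bases that entries share can be missing, as described below, so a marker with several entries that is listed at 0 can have been transcribed. By RT-PCR the paper detected Stra8 and Sycp3 in RA-treated FGSCs. Kitl, Fst and Inhba were the 3 granulosa cell markers, of 8, that reached 3 counts in replicate 1, and none did in replicate 2, and the 8 together held 0.0467% of replicate 1 and 0.0321% of replicate 2. Fibroblast genes that reached 3 counts numbered 5 of 9 in replicate 1, led by Dcn with 2281, and 3 of 9 in replicate 2, and the summed share of all 9 was 0.289% and 0.129%. Over all protein-coding nuclear genes, 29.5% reached 3 counts in replicate 1 and 3.44% in replicate 2. Of the fibroblast genes, Vim, Thy1 and Fn1 had only 1 count each in replicate 1, and Fn1 had 5 in replicate 2. Foxl2, Amh and Cyp19a1 were at 0 in both libraries, as was Lum. The part of other cell types in the subunit counts was not tested, and in such libraries fewer cells of a type and less RNA per cell cannot be told apart.

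Counts were given per listed entry rather than per gene. An entry was either an Ensembl transcript, as a rule one without a protein product, or a protein accession that stands for the translated transcripts. The gene of a protein accession was deduced from its place in the order of annotated transcripts. The 86 members had 354 entries that could belong to no other gene, 165 Ensembl transcripts and 189 protein accessions, and 28 further entries with several candidate genes were left out. Reads on bases annotated to several transcripts were almost absent from the counts. In replicate 1, 3 of the 10320 Ensembl transcripts that overlap others along all their exons were counted, and in replicate 2 none (0), against 6576 and 2158 of the 64872 transcripts with some unshared bases. For the members, replicate 1 listed counts on 0 of 26 wholly overlapped transcripts and on 20 of the other 139. A member with many overlapping entries that is listed at 0 can therefore have been transcribed.

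Subunit genes took 13554 counts in replicate 1, which is 0.893% of the library (95% Wilson interval, 0.879% to 0.908%). In replicate 2 they took 38 counts, which is 0.305% with an interval of 0.223% to 0.419%. The intervals do not overlap, but they cover counting error only, since PCR copies are not independent molecules. Entries with several candidate genes could raise the count of replicate 1 to at most 16452, or 1.08% of the library. Without replicate 1 the summed share rests on 38 counts, and Ensembl transcripts alone, whose genes needed no deduction, held 0.0110% of replicate 1 and 0.104% of replicate 2.

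Complex I had the most counts in each library, though in replicate 2 its interval overlapped that of complex III. In replicate 1 it held 0.457% of all counts, complex V 0.195%, complex III 0.159%, complex II 0.0569% and complex IV 0.0254%. The place of complex II is not settled, because entries with several candidate genes could raise it to at most 0.237%, above complexes III and V. In replicate 2 complex I had 20 counts, complex III 15, complex V 2 and complex II 1. Complex IV had 0 of 12442 counts in replicate 2, and the upper bound of its Wilson interval, 0.0309%, lies above its share in replicate 1. The interval of complex III in replicate 2, 0.0731% to 0.199%, also contains the value of replicate 1. Those of complex I (0.104% to 0.248%), complex II (0.00142% to 0.0455%) and complex V (0.00441% to 0.0586%) lie below the values of replicate 1. All of them cover counting error only. These sums depended on few genes, since Atp5g1 made up 84.6% of the complex V counts and Uqcrfs1 85.8% of the complex III counts in replicate 1. Both genes have a single entry, whereas reads shared between overlapping entries are almost absent from the counts. The order of the complexes is thus one of counts on listed entries and does not give the order of their transcripts.

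**Figure D1:**
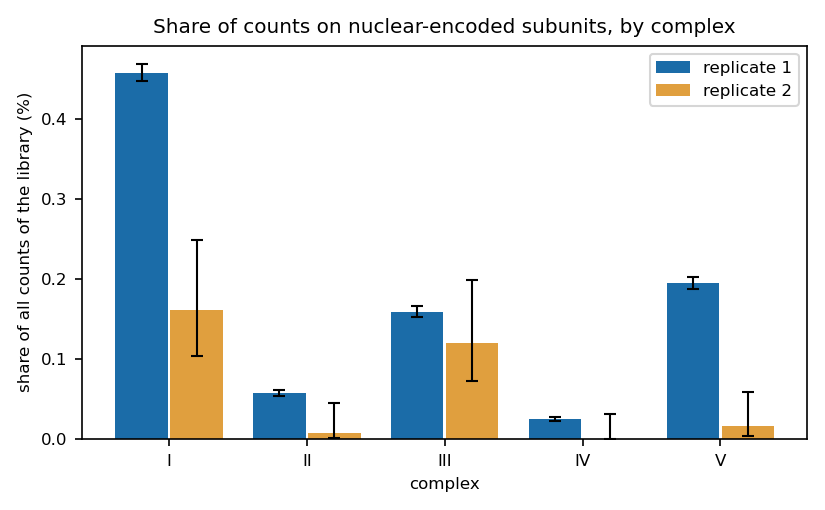
Share of all counts of the library on the nuclear-encoded subunits of each complex, in percent on a linear axis from 0, for replicate 1 (blue) and replicate 2 (orange), with 95% Wilson intervals of counting error. Complex I stands highest in both libraries, at 0.457% and 0.161%, and complex IV of replicate 2 is at 0. Entries with several candidate genes are left out, and they could raise complex II of replicate 1 to at most 0.237%.

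In replicate 1, 48 of the 86 members had at least 1 count, against 39.4% of all protein-coding nuclear genes, and 38 (44.2%) had at least 3, against 29.5%. In replicate 2, 17 had a count, against 11.5%, and 5 had at least 3, against 3.44%. In both libraries 14 members had a count, against 7.51% of all genes. Another 34 had counts in replicate 1 only and 3 in replicate 2 only, and 35 were at 0 in both, against 56.6%. The median level of all members in replicate 1 was 0.38 on the log2(FPKM + 1) scale, where FPKM is the counts per kilobase of exon and per 1000000 counts, beside 0 over all genes, and in replicate 2 both medians were 0. Among the 218 genes with the highest FPKM in replicate 1, the upper 1% of all genes, were 8 members, which is 9.30% of the members. They were Ndufa1, Ndufa2, Ndufa8, Ndufa13, Ndufb3, Ndufb11, Uqcrfs1 and Atp5g1. Among the upper 5% were 18 members, or 20.9%.

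The level of a member went with the number of its entries. Of the 12 members with a single entry, 9 had at least 3 counts in replicate 1, against 19.7% of all genes with a single entry. Of the 25 members with 2 to 3 entries 11 did, against 27.3%, of the 32 with 4 to 6 entries 12, against 33.7%, and of the 17 with 7 or more 6, against 36.2%. The members thus ran from 75% down to 35.3% as entries became more numerous, while the share of all genes ran upwards. The median FPKM in replicate 1 was 490 for members with a single entry, 0.836 for those with 2 to 3 entries, 0.139 for those with 4 to 6, and 0 for those with 7 or more. All 8 members of the upper 1% had a single entry. The 3 members with a single entry and no counts were Cox7b2, Cox8b and Cox8c, of which Cox8b is best known from muscle and Cox7b2 and Cox8c from testis. Why the share falls in the members was not tested.

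**Figure D2:**
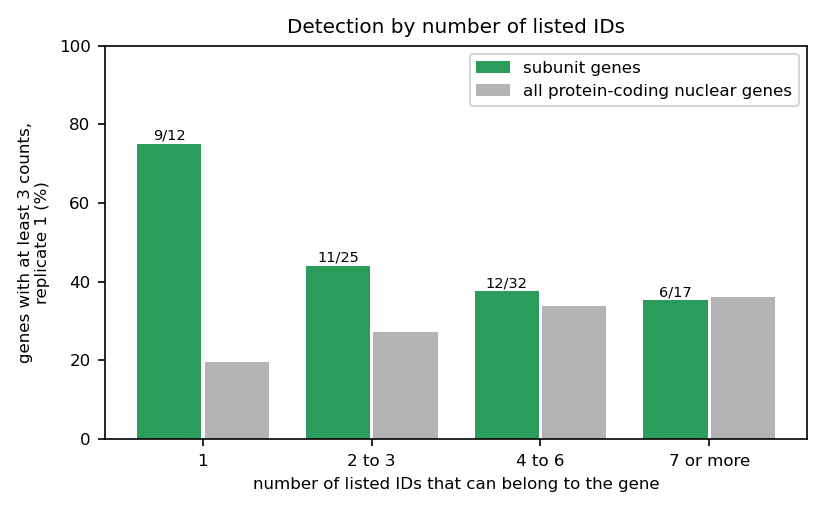
Percentage of genes with at least 3 counts in replicate 1, on an axis from 0 to 100, by the number of listed IDs (entries) that can belong to the gene, for the subunit genes (green, with the number detected of the number in the class) and for all protein-coding nuclear genes (grey). The green bars run from 75% at 1 entry to 35.3% at 7 or more, and the grey bars from 19.7% to 36.2%.

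**Figure D3:**
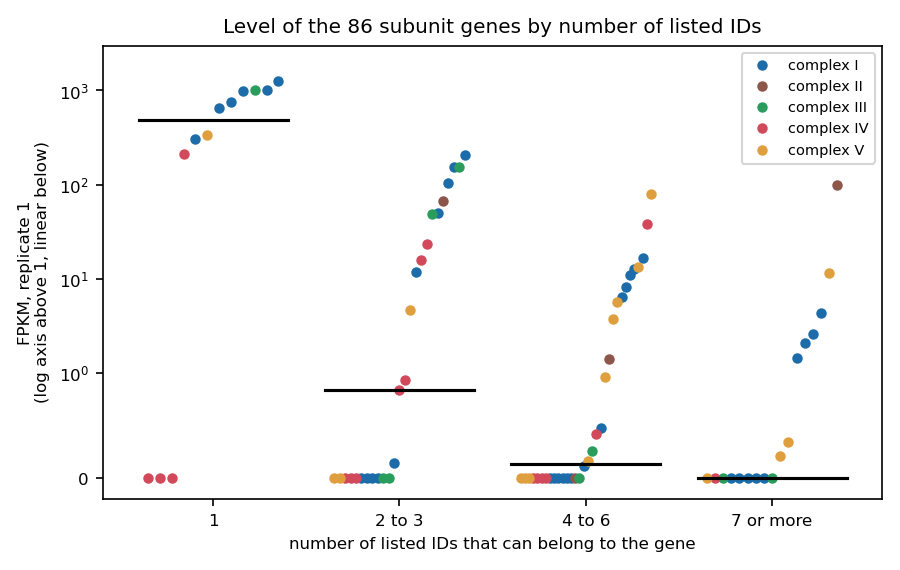
FPKM of each of the 86 subunit genes in replicate 1 (logarithmic axis above 1, linear below) by the number of listed IDs (entries) that can belong to the gene. Each point is 1 gene coloured by complex and each black line the median of the class, which is 490 for genes with 1 entry and 0 for those with 7 or more.

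By FPKM in replicate 1, complex I supplied 5 of the 6 highest members among those with entries of their own, and Uqcrfs1 of complex III ranked 3. Complex I held 38 of the 86 members, and all 6 of these genes had a single entry, the class with the highest levels. Ndufa1, a small accessory subunit of the membrane arm (GRCm38, chrX:37187588-37191163), had 806 counts in replicate 1 and 2 in replicate 2, and its FPKM of 1268 in replicate 1 was the highest among the members, leaving aside Sdhd, which is not resolved, with an exact 95% Poisson interval of 1182 to 1359. Ndufa2, an accessory subunit of the peripheral arm, had 886 counts in replicate 1 and 1 in replicate 2 and an FPKM of 1021 (955 to 1090) in replicate 1. Ndufb11, another subunit of the membrane arm (chrX:20615326-20617619), had 1367 counts in replicate 1, an FPKM of 992 (940 to 1046), and 0 in replicate 2. At its share of replicate 1 it would have had 11.2 counts in replicate 2. The intervals of Ndufa2, Uqcrfs1 and Ndufb11 overlap, so their order is not resolved, while that of Ndufa1 lies above all 3 in replicate 1. These intervals cover counting error only. In replicate 2 Uqcrfs1 stood above Ndufa1, with an FPKM of 472 (204 to 930) against 384 (46.5 to 1386), and the intervals overlap. Ndufa8, an accessory subunit that faces the intermembrane space (chr2:36036326-36049406), followed with 987 counts in replicate 1, an FPKM of 756 (709 to 804), and 1 count in replicate 2.

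Other accessory subunits of complex I were also well covered. Ndufa13, also known as GRIM-19 for its role in cell death, had 1224 counts in replicate 1, an FPKM of 645, and 3 in replicate 2. Ndufb3 had 357 counts and 1 count. Ndufb5 had 16 counts in replicate 1 and 4 in replicate 2, so its FPKM was 2.11 in the former and 64.4 in the latter. Ndufb4 had 0 counts in replicate 1 and 4 in replicate 2, all on a transcript annotated with a retained intron. The core subunits, which hold the flavin and the iron-sulfur clusters or the quinone site, were unevenly covered. Among them, Ndufv2 had 339 counts in replicate 1, Ndufs8 had 301 and Ndufs1 had 54. Ndufv1, Ndufs3 and Ndufs7 were at 0 in both libraries, and each had at least 5 entries. In replicate 2 Ndufs8 had 1 count, and Ndufv2 and Ndufs1 had 0.

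In complex II, Sdha, the flavoprotein that oxidizes succinate (chr13:74322254-74350280), had 626 counts in replicate 1 and 1 in replicate 2, with an FPKM of 100 (92.3 to 108) in replicate 1. Sdhb, the iron-sulfur subunit, had 231 counts in replicate 1 and 0 in replicate 2. Of the membrane anchors, Sdhc had 7 counts in replicate 1 and 0 in replicate 2. Sdhd, the other anchor, had no entry that the deduction from list order gave to it alone, and is therefore not resolved here. Up to 2736 counts of replicate 1 and 1 count of replicate 2, on entries with several candidate genes, may be its own, and they would bring complex II from 864 to 3600 counts in replicate 1.

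Uqcrfs1 led complex III in both libraries. It encodes the Rieske iron-sulfur protein of complex III (chr13:30540308-30545362), and it had 2073 counts in replicate 1 and 8 in replicate 2, more than any other member in the latter. Its FPKM was 1002 (960 to 1047) in replicate 1 and 472 (204 to 930) in replicate 2, and its level ranked 3 and 1 among the 86 members. Uqcrb and Uqcrq, small accessory subunits, had 206 and 136 counts in replicate 1 and 1 and 0 in replicate 2. Uqcrc1, a core protein of complex III, had 0 counts in replicate 1 and 6 in replicate 2, all on a transcript with a retained intron, and 6 more counts of replicate 1 lay on an entry with several candidate genes. Cyc1, Uqcrh, Uqcr10 and Uqcr11 were at 0 in both libraries and had 3 to 7 entries each.

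Complex IV was sparsely covered. Most of its genes had several entries, and reads on bases these share can be missing from the counts. The same is true of most genes of each other complex, and why complex IV was low was not tested. Cox6a2, the form of subunit VIa known from heart and skeletal muscle (chr7:128205435-128206387), had 217 counts in replicate 1 and 0 in replicate 2, with an FPKM of 210 (183 to 240) in replicate 1. It was the only complex IV gene above an FPKM of 100 in replicate 1. Cox5b had 92 counts in replicate 1, Cox8a had 22, and Cox5a had 51, all 51 on a transcript with a retained intron. All 3 were at 0 in replicate 2. Reads on bases that such a transcript shares with a coding entry can be missing, so the counts of Cox5a do not show that its RNA was unspliced. The same limit holds for other members with counts only on such transcripts. The remaining 14 genes of the complex had 0 or 1 count in replicate 1.

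Several complex IV subunits and Ndufa4 exist in a widely expressed and a restricted form, and the pairs are given side by side as counts in replicate 1. The complex IV pairs were at 0 in replicate 2, as were Ndufa4 and Ndufa4l2. Cox6a1, the widely expressed form, had 1 count where Cox6a2 had 217, with 2 entries for the former and 1 for the latter. Cox4i1 and Cox4i2, the latter known from lung and from low oxygen, had 1 count each. Cox8a had 22 counts where Cox8b and Cox8c had 0. Ndufa4, grouped here with complex I by its symbol but now known as a subunit of complex IV, had 1 count and Ndufa4l2, known from low oxygen, had 0. Cox6b1 and the testis form Cox6b2, Cox7a2 and the muscle form Cox7a1, and Cox7b and Cox7b2 were at 0. Summed over complex IV, the 6 widely expressed forms had 24 counts and the 7 restricted forms 218, a difference that rests on Cox6a2. Since Cox6a1 had more entries than Cox6a2, the counts of this pair do not give the ratio of their transcripts.

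**Figure D4:**
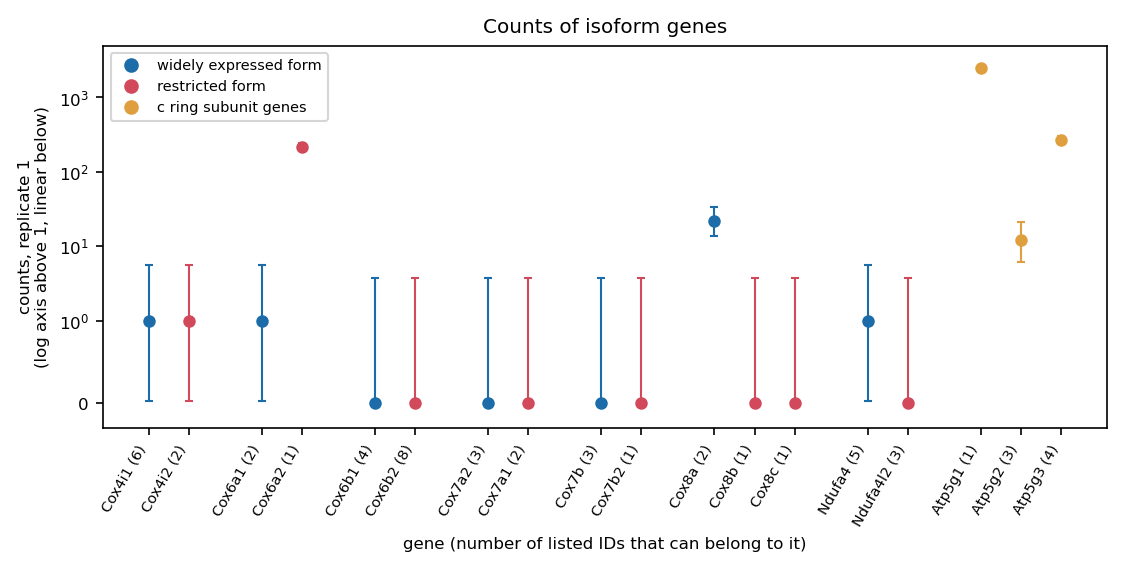
Counts in replicate 1 (logarithmic axis above 1, linear below) of genes that encode forms of the same subunit, with exact 95% Poisson intervals and the number of listed IDs (entries) in brackets. Widely expressed forms are blue, restricted forms red and the genes of the c ring orange. Cox6a2 stands at 217 above Cox6a1 at 1, and Atp5g1 at 2500 above Atp5g3 at 265 and Atp5g2 at 12.

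Atp5g1 had the most counts in replicate 1 among members with entries of their own, while Sdhd, through entries with several candidate genes, could have up to 2736. Atp5g1, Atp5g2 and Atp5g3 encode the same mature c ring peptide of ATP synthase, and they had 2500, 12 and 265 counts in replicate 1 and 0 each in replicate 2. Atp5g1 (chr11:96068852-96075670) had a single entry and the others 3 and 4. The FPKM of Atp5g1 was 335 (322 to 349) over 4912 exonic bases, which ranked 7 among the members. Over the 231 bases that lie in only 1 annotated transcript it was 7133. As the gene had a single entry, that length can be too short and that value too high. Of the 5 genes of the F1 head, which carries the catalytic sites, Atp5b had 74 counts in replicate 1 and Atp5d had 11, while Atp5c1 had 1 and Atp5a1 and Atp5e had 0. Atp5h, subunit d of the peripheral stalk, had 30 counts. Atp5l, subunit g of the membrane part, had 56, all on a transcript with a retained intron, so the limit given for Cox5a applies. In replicate 2 the complex had 1 count on Atp5b and 1 on Atp5j2. At its share of replicate 1, Atp5g1 would have had 20.5 counts there, and why it had 0 was not tested.

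**Figure D5:**
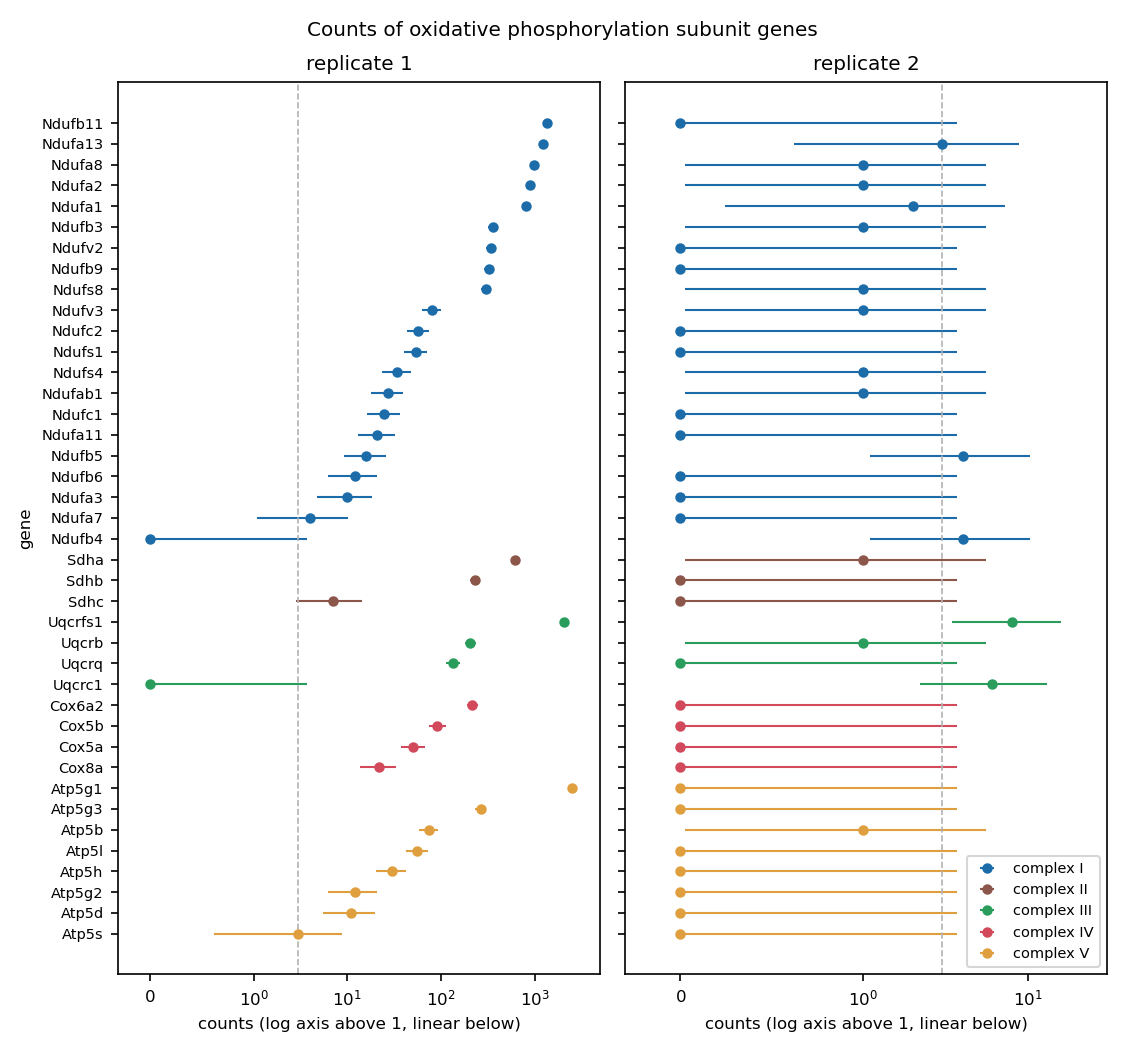
Counts of the 40 subunit genes with at least 3 counts in a library, in replicate 1 (left) and replicate 2 (right), each on an axis that is logarithmic above 1 and linear below, coloured by complex, with exact 95% Poisson intervals; the dashed line marks 3 counts. Replicate 1 spans 0 to 2500 counts, whereas in replicate 2 no gene exceeds the 8 counts of Uqcrfs1, and all genes of complex IV are at 0.

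A few genes carried most of the counts, and the libraries shared part of their order. In replicate 1 the top 10 members held 82.4% of the member counts and the top 4 (Atp5g1, Uqcrfs1, Ndufb11 and Ndufa13) 52.9%. Across the 86 members, Pearson's r of log2(FPKM + 1) between the libraries was 0.53 and Spearman's rho 0.42, beside 0.19 and 0.20 across 21833 protein-coding nuclear genes. These points share library, depth and exon length, genes are not independent replicates, and 35 members are at 0 in both. Taken from Ensembl transcripts alone, r was -0.056. Ensembl transcripts held 1.23% of the member counts in replicate 1 and 34.2% in replicate 2, where the interval is 21.2% to 50.1% on 38 counts. Over all protein-coding nuclear genes the same shares were 2.52% and 29.3%. Transcripts with a retained intron made up 0.996% of the member counts in replicate 1 and 28.9%, or 11 of 38, in replicate 2. None of the members shared more than 50% of its 50-base words with transcripts of other genes, and 36 shared none. The highest shares were 40.5% for Atp5o and 38.3% for Atp5g2.

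The promoters of the subunit genes shared words that the choice of members had not used. Promoter windows of 250 bases before to 50 after the start site came from RefSeq on GRCm38.p6, and 69 members matched, with 74 windows. The words were searched on both strands and each is a match of letters, not a site. The NRF1 word, a palindrome of 10 bases, was in 6.76% of the member windows, against 0.971% of all 32851 windows and 1.33% of those of coding genes. A looser form that allows any base at its position 5, and so contains the former, was in 24.3%, against 4.60% and 6.38%. The ETS word CGGAAG was in 37.8%, against 16.9% and 21.1%, and the YY1 word AAGATGGCG in 9.46%, against 1.40% and 1.83%. The ETS word can end in the first 3 bases of the YY1 word. Of the 17 genes with the looser NRF1 word, 6 (35.3%) had at least 3 counts in replicate 1, beside 44.2% of all members. Ndufa8, Sdha and Atp5g3 had the most counts on entries of their own, and Sdhd, also among the 17, is not resolved. Their windows are shown because they join that word to covered genes. The looser word, on either strand, is in capitals with up to 60 bases on either side, 5′ to 3′ on the strand of the gene.
Ndufa8, chr2:36049299-36049428, strand -: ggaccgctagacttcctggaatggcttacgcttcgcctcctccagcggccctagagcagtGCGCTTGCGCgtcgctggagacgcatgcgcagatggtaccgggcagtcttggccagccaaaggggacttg
Sdha, chr13:74350191-74350398, strand -: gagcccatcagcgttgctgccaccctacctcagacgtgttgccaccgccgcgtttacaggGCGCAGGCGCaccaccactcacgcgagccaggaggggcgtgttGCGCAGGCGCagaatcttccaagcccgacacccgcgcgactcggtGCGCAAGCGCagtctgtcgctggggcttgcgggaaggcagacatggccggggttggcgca
Atp5g3, chr2:73911277-73911374, strand -: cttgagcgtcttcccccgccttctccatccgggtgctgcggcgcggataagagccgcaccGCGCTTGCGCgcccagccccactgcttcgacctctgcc
The word began 30 bases before the start site in Ndufa8 and 12 bases after it in Atp5g3. In Sdha 3 copies were found, the first beginning 98 bases before the start site. Counts of these genes were 987, 626 and 265 in replicate 1 and 1, 1 and 0 in replicate 2. Atp5k, Ndufa5 and Ndufs5 also held the word and were at 0 in both libraries, with 2 to 5 entries each.

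Assembly factors, carriers and the subunits made inside the mitochondrion were set beside the members. Of 45 assembly factors, 24 had at least 3 counts in replicate 1, against 29.5% of all protein-coding nuclear genes, and the highest on entries of their own were Coa6 with 321, Cox14 with 312 and Coa5 with 257, all of them factors of complex IV. Ndufaf2, a factor of complex I, had 0, but up to 540 counts on entries with several candidate genes may be its own. In replicate 2 Sdhaf4, a factor of complex II, had 6 counts (154 in replicate 1) and Coa7 had 3 (74 in replicate 1). Of 15 carriers and regulators, 10 had at least 3 counts in replicate 1, against the same 29.5%, led by Yy1 with 215, Etfa, part of the flavoprotein that feeds electrons from fat oxidation, with 196, and Tfam, which packages and transcribes mitochondrial DNA, with 173. None had 3 in replicate 2. Cycs, the somatic cytochrome c, had a single entry and was at 0 in both libraries. Its words were not compared with those of other genes, so a loss of reads shared with them was not tested. Of the 13 mitochondrially encoded subunits, 12 had at least 3 counts in replicate 1 and 7 in replicate 2. They took 8.19% of replicate 1 and 3.28% of replicate 2, which was 9.17 and 10.7 times the counts of the nuclear-encoded members, and mt-Co1 of complex IV (39240 and 131 counts), mt-Cytb of complex III (33481 and 48) and mt-Nd1 of complex I (21537 and 54) led in replicate 1. Each of the 13 has a single entry, whereas 74 of the 86 members have several, so this ratio is not one of transcripts. The mitochondrially encoded genes were also unevenly covered. In replicate 1 mt-Atp6 had 270 counts, mt-Co3 233, mt-Co2 154, mt-Nd3 5, mt-Nd4l 3 and mt-Atp8 1, and why was not tested. The other mitochondrially encoded genes with at least 3 counts in replicate 2 were mt-Nd5 with 99, mt-Nd2 with 48, mt-Nd4 with 18 and mt-Nd6 with 10.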

How the data were processed

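RNA-seq of differentiated FGSCs was analysed in 2 libraries of 5 to 8 cells. The deposited values are raw counts, whole numbers for each ID, which the authors neither normalized nor pooled. The submitters' processing notes name FastQC, Trim Galore, HISAT2 2.2.1, featureCounts and mm10, whereas the paper's methods describe TopHat and FPKM from Cufflinks; the gene annotation and the strand setting are not given in the sources used here. Members and lists were chosen with earlier results of these data known, and genes were named by rule where they were among the 4 highest by FPKM of a complex in replicate 1 with at least 3 counts there, had at least 3 counts in replicate 2, belonged to the isoform pairs or marker lists, or were in the top 3 of another list. All other genes named, among them the core subunits of complex I, the F1 head, the complex III genes at 0, the promoter examples and Cycs, were chosen after their values were seen; some single-gene values are not reported here.

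Of 129311 IDs, 76066 were Ensembl transcripts and 53245 protein accessions. Transcripts were paired with genes by GENCODE M21 (GRCm38, the mm10 assembly). The gene of an accession was deduced: candidates were translated transcripts that start between the neighbouring annotated IDs and are not listed themselves, narrowed by rank and by requiring that each gene keeps an ID. The last requirement was added after the values were seen. This left 1 gene for 89.3% of the accessions. With 80% of the known IDs hidden, 81.2% were placed in 1 gene, and 99.6% of those were right. The candidates in that check were listed transcripts only, so it does not give the error rate for the accessions. IDs of 1 gene held 93.7% (replicate 1) and 95.9% (replicate 2) of all counts. The counts of a gene were summed over its IDs, and FPKM was computed over the merged exons and all counts of the library. Summing was tested on simulated data that used the same pairing of IDs with genes, which checks the arithmetic but not the pairing. Shares have 95% Wilson and counts exact Poisson intervals. No test was run, since both libraries belong to 1 group. The software was Python 3.11.15 with statsmodels 0.14.6, scipy 1.17.1, pandas 2.3.3, numpy 2.4.6 and matplotlib 3.10.9.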

Additional observations from a re-analysis of the deposited data

How the results depend on the processing

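No paired analysis was possible because the study's labels give 1 group and no test was run. Of 57 values recomputed under alternatives, 10 could not move, because the alternative removed no counts or, for the mean share, left out 1 of only 2 libraries. Of the other 47, 25 stayed within counting error, within 1 SD of the libraries or, for counts of genes, within 1.5 times, 21 moved further and 1 reversed. From Ensembl transcripts alone the share of counts on members was 0.0110% in replicate 1 and 0.104% in replicate 2, members with at least 3 counts were 7 and 2, members at an FPKM of 10 or more in replicate 1 fell from 27 to 1, the median member level over the mean of both libraries, 0.41 on the log2(FPKM + 1) scale, was 0, and Pearson's r between the libraries was -0.056; that setting drops nearly all coding transcripts. The share in replicate 1 was 1.13% with ambiguous entries given to each candidate gene, 1.08% with no more of them than the gene has transcripts, 0.723% with candidates narrowed by rank only, 0.729% without Atp5g1 and 1.01% of the counts outside the mitochondrial genome. The alternatives at 1.08%, 0.723% and 0.729% and those on members with a single entry were chosen after seeing the data. Among members with a single entry, 9 and 2 had at least 3 counts in replicates 1 and 2, and their median was 8.21. In replicate 2, 17 members had at least 1 count and 0 at least 10. The median was 1.06 over bases of 1 transcript, -1.26 with a pseudocount of 0.1 and 3.72 over members with a count. Leaving out each library in turn gave a mean share between 0.305% and 0.893%, 5 to 38 members with at least 3 counts in a library, and a median of 0 to 0.38. Replicate 2 limits what can be seen, since a gene below 241 CPM falls under 3 counts there. Atp5g1 and Ndufb11, at 1648 and 901 CPM in replicate 1, were also at 0 in replicate 2. Conversely, Uqcrc1 and Ndufb4 had 0 counts on entries of their own in replicate 1 and 6 and 4 in replicate 2.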
